A study of Mus musculus with 6 samples.

Results

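Transcript levels of 9 regulators of epithelial identity were followed in mouse tumors of the mammary carcinoma line 4T1. The genes are the grainyhead-like factors Grhl1, Grhl2 and Grhl3, the Ovo-like factors Ovol1 and Ovol2, the Ets factors Elf3 and Ehf, and the splicing regulators Esrp1 and Esrp2. They were chosen by name as members of these families, with earlier results of these data known. All 9 were found among the 54146 genes of the count tables. The series holds 3 libraries from tumors of wild-type 4T1 cells and 3 from tumors of Mki67-/- cells, which carry a knockout of the gene for Ki-67, a nuclear protein of dividing cells. Nude mice carried the cells of either genotype in a mammary fat pad, and the tumors were collected after 3 weeks. Nude mice lack a thymus and thus most T cells, but keep natural killer cells, B cells and myeloid cells. How many knockout clones were used, and whether each library came from a separate animal, is not stated in the labels. A difference between clones and an effect of the knockout cannot be told apart, and p-values measure the spread between these libraries, which may be technical.

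Grainyhead-like proteins are DNA-binding factors that keep genes of cell adhesion and of the epithelial barrier active. Ovo-like proteins are zinc finger factors, mostly repressors, known for holding mesenchymal regulators such as Zeb1 down in epithelia. Elf3 and Ehf belong to the epithelium-specific Ets factors, and the Esrp proteins bind RNA and promote the epithelial splice forms of many transcripts. In carcinoma cells these families are known to be active in the epithelial state and to be lost in the transition to a mesenchymal state.

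Promoter sequences are shown because factors of these families and their mesenchymal opponents recognise short DNA motifs, and the 3 genes below differ in how they behaved over the libraries. RefSeq promoter windows on build GRCm38.p6, from 250 bases before to 50 bases after a start site, were matched by symbol for 4 of the 9 genes, Grhl1, Grhl3, Ovol2 and Elf3. The windows of Elf3 (chr1:135258423-135258722, minus strand), Grhl3 (chr4:135573583-135573882, minus strand) and Ovol2 (chr2:144331313-144331612, minus strand) read as follows, 5′ to 3′ along the gene, with capitals marking the E-box CAGGTG or its reverse complement CACCTG, a motif of Zeb and Snail repressors.
Elf3: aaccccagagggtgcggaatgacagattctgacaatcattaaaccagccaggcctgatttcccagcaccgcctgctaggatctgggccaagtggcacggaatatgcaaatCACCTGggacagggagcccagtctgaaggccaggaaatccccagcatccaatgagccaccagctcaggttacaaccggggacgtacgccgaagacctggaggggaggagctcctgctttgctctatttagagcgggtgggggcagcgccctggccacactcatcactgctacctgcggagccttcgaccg
Grhl3: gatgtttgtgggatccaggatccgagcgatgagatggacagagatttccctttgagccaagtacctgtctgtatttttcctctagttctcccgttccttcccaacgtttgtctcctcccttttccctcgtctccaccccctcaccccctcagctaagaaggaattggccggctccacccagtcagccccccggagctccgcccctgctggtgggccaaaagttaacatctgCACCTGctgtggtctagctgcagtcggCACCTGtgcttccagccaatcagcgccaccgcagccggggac
Ovol2: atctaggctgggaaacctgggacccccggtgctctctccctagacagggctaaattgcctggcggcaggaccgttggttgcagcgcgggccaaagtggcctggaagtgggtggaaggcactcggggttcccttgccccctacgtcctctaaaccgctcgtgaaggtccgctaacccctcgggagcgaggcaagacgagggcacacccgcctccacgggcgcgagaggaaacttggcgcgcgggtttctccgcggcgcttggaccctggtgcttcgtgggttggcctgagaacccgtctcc
The Elf3 window held 1 match, upstream of the start site. The Grhl3 window held 2 matches, 1 on each side of the start site, and the Ovol2 window held 0. Over all 32851 promoter windows of this length, 20.2% held the E-box on either strand. The grainyhead motif AACNGGTT, the Ets motif CGGAAGT and the Ovo-like motif CCGTTA, each searched on both strands, were in none of the 5 windows of these 4 genes. They were in 2.09%, 6.42% and 2.76% of all windows. A match is a run of letters and not a measured binding site, and an absent match says nothing of the factor.

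Between 22081970 and 38399826 read pairs were assigned to genes in a library, fewer in every knockout library than in any of wild type. Mki67 itself was at 360, 395 and 325 CPM (counts scaled to library size, per 1000000 counts) in the wild-type libraries and at 98.7, 117 and 139 CPM in the knockout libraries, in the direction of the labels. Markers of simple epithelium (Epcam, Krt8, Krt18, Krt7, Krt19 and Cldn7) were detected in every library, with summed levels of 2731 to 2828 CPM in wild-type and 5086 to 5523 CPM in knockout tumors. The unmapped share of read pairs was 30.8% to 33.9% in 4 libraries and 54.6% and 52.7% in knockout replicates 2 and 3.

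Of the 9 regulators, 8 rose in knockout tumors and none fell. Grhl3 did not pass the test. In the falling direction 0 regulators passed at an unadjusted p under 0.05 either, and 0 with DESeq2. The test was edgeR's quasi-likelihood test on the 19900 genes with enough counts, with Benjamini-Hochberg adjustment over all of them and calls were made at an adjusted p under 0.05. In that comparison 17.6% of all genes tested were called higher and 18.4% lower, 36% in all. All 9 regulators passed the filter on low counts. Each of the 8 that rose was at least 2-fold higher, as were 9.48% of all genes tested, and 5 of them (Ovol1, Ovol2, Elf3, Ehf and Esrp2) were at least 4-fold higher, as were 2.92%. With knockout replicate 2 left out, 3 regulators reached 4-fold, and Elf3 and Ehf did not. The libraries under 40% unmapped include knockout replicate 1 alone of the knockouts. In them Elf3 was at 1.945 and Ehf at 1.805 on the log2 scale, below 4-fold. The median log2 fold change of the 9 was 2.44, beside 0.05 over all genes tested. The groups did not overlap for the same 8, and 24.5% of all genes tested were likewise higher without overlap, 26% lower. In RNA from whole tumors, more cells expressing a gene and more RNA per cell cannot be told apart.

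**Figure D1:**
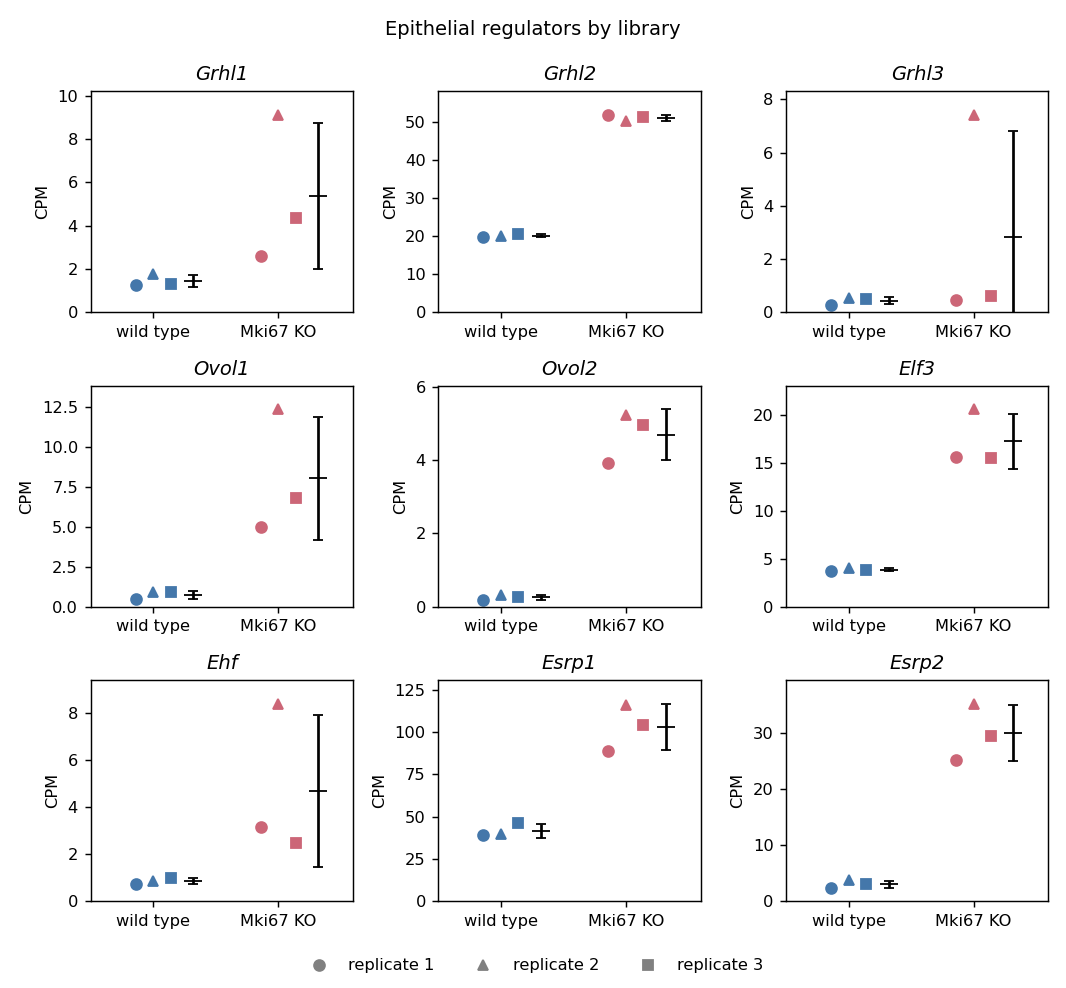
Level of each of the 9 regulators in CPM (linear axis from 0) in 3 wild-type and 3 Mki67 knockout libraries, with a symbol for each replicate and the mean ± SD of each group (the bar of Grhl3 is cut at 0). Grhl2 lay between 50.3 and 51.9 CPM in all knockout libraries, while Grhl3 was high in knockout replicate 2 alone, at 7.43 CPM.

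Grhl2, known for control of the E-cadherin gene and of tight junctions, was the most abundant grainyhead-like gene and varied little within each group. It lies on GRCm38 chromosome 15, 37233036 to 37363569 on the plus strand (ENSMUSG00000022286). Its level was 19.7, 20.2 and 20.6 CPM in the wild-type libraries against 51.9, 50.3 and 51.5 CPM in knockouts. Each group was tight, and the groups were far apart. The log2 fold change was 1.35 (SE 0.09, edgeR adjusted p = 1.42e-05), a 2.54-fold rise.

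Grhl1, known from desmosomes and the epidermis, lies on chromosome 12, 24572283 to 24617391 on the plus strand (ENSMUSG00000020656). It was low in wild-type tumors, at 1.24, 1.75 and 1.28 CPM. In knockout tumors it was at 2.602, 9.12 and 4.35 CPM, so all knockout libraries were above the wild type and replicate 2 stood far above replicate 1. The log2 fold change was 1.90 (SE 0.43, adjusted p = 0.00957). Without knockout replicate 2 it was 1.22 and still passed (adjusted p = 0.00767). With the unmapped share of reads as a covariate it was 0.94 and did not pass (adjusted p = 0.0994).

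Grhl3, a factor of epidermal barrier formation, lies on chromosome 4, 135541888 to 135573630 on the minus strand (ENSMUSG00000037188). It was at 0.276, 0.530 and 0.481 CPM in wild-type tumors, from 10, 20 and 18 read pairs. In knockout tumors it was at 0.455, 7.43 and 0.602 CPM, from 14, 188 and 14 read pairs. Knockout replicates 1 and 3 lay at the level of the wild-type libraries, and replicate 2 alone was high. The log2 fold change was 2.70 (SE 1.00, 95% interval 0.43 to 4.98) and did not pass (adjusted p = 0.0638). Without knockout replicate 2 it was 0.24 (adjusted p = 0.674), while it passed without knockout replicate 1 (3.22, adjusted p = 0.0167) and without knockout replicate 3 (3.18, adjusted p = 0.0493).

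Ovol1, a zinc finger factor of epidermal and hair differentiation, lies on chromosome 19, 5549136 to 5560646 on the minus strand (ENSMUSG00000024922). It was at 0.469, 0.900 and 0.909 CPM in wild-type and 4.98, 12.4 and 6.80 CPM in knockout tumors. The lowest knockout library was above the highest wild-type library, and knockout replicate 2 was again the highest. The log2 fold change was 3.39 (SE 0.40, adjusted p = 0.000376), and 2.89 without that library.

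Ovol2, known for repressing Zeb1 and other mesenchymal regulators, had the largest fold change of the 9. It lies on chromosome 2, 144305175 to 144332146 on the minus strand (ENSMUSG00000037279). It was at 0.193, 0.318 and 0.267 CPM in wild-type tumors, from 7, 12 and 10 read pairs, and at 3.90, 5.21 and 4.95 CPM in knockout tumors, from 120, 132 and 115 read pairs. The groups were far apart and the knockout libraries close together. The log2 fold change was 4.15 (SE 0.27, adjusted p = 1.84e-05), and the wild-type counts behind it were few. Over the alternatives run it ranged from 3.67 in the second stranded column to 4.75 in the first.

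Elf3, an Ets factor of differentiating epithelia, lies on chromosome 1, 135253575 to 135258568 on the minus strand (ENSMUSG00000003051). It was at 3.75, 4.03 and 3.85 CPM in wild-type and 15.6, 20.6 and 15.5 CPM in knockout tumors. The groups did not overlap, and the rise was 4.44-fold (log2 fold change 2.15, SE 0.16, adjusted p = 2.85e-05).

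Ehf, its close relative, lies on chromosome 2, 103263433 to 103303278 on the minus strand (ENSMUSG00000012350). It was at 0.718, 0.874 and 0.989 CPM in wild-type and 3.16, 8.37 and 2.50 CPM in knockout tumors. All knockout libraries were above all wild-type libraries, with replicate 2 far above the others. The log2 fold change of 2.44 (SE 0.46, adjusted p = 0.00428) became 1.67 without that library (adjusted p = 0.00105).

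Esrp1, the more abundant of the splicing regulators, lies on chromosome 4, 11331933 to 11386783 on the minus strand (ENSMUSG00000040728). It was at 38.9, 39.7 and 46.4 CPM in wild-type and 89.1, 116 and 104 CPM in knockout tumors. The groups did not overlap, and the rise of 2.47-fold (log2 fold change 1.31, SE 0.12, adjusted p = 0.000108) was the smallest of the 8.

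Esrp2 lies on chromosome 8, 106130319 to 106136974 on the minus strand (ENSMUSG00000084128). It was at 2.37, 3.73 and 3.05 CPM in wild-type and 25.3, 35.3 and 29.5 CPM in knockout tumors. The groups were far apart, and the rise was 9.81-fold (log2 fold change 3.29, SE 0.20, adjusted p = 1.11e-05). Of its exonic bases, 7.79% are shared with the opposite-strand genes 1810019D21Rik and Nfatc3, and the libraries keep no strand, so reads from such bases cannot be assigned. In the stranded columns of the tables, which give Esrp2 more wild-type read pairs, the log2 fold change was 2.11 and 2.21 and passed in both. As the libraries keep no strand, these columns can also count pairs of the opposite-strand genes from the shared bases. 1810019D21Rik was at 9 to 18 read pairs in wild-type and 66 to 132 in knockout libraries. Nfatc3 had far more, at 2403 to 2701 read pairs in wild-type and 2329 to 2528 in knockout libraries. The 1038 tested genes of chromosome 8 had a median log2 fold change of 0.44, while the medians of the other chromosomes that hold these regulators lay between -0.06 and 0.03. Whether these values bear on the size of the Esrp2 difference was not tested. Shared exonic bases were 22.0% for Ovol1, 17.0% for Ovol2, 7.31% for Elf3 and at most 2.01% for the others. In the first and second stranded columns, which have the same limit here, Ovol1 was at 2.84 and 2.93 on the log2 scale. Ovol2 was at 4.75 and 3.67 there, and both genes passed in both columns.

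**Figure D2:**
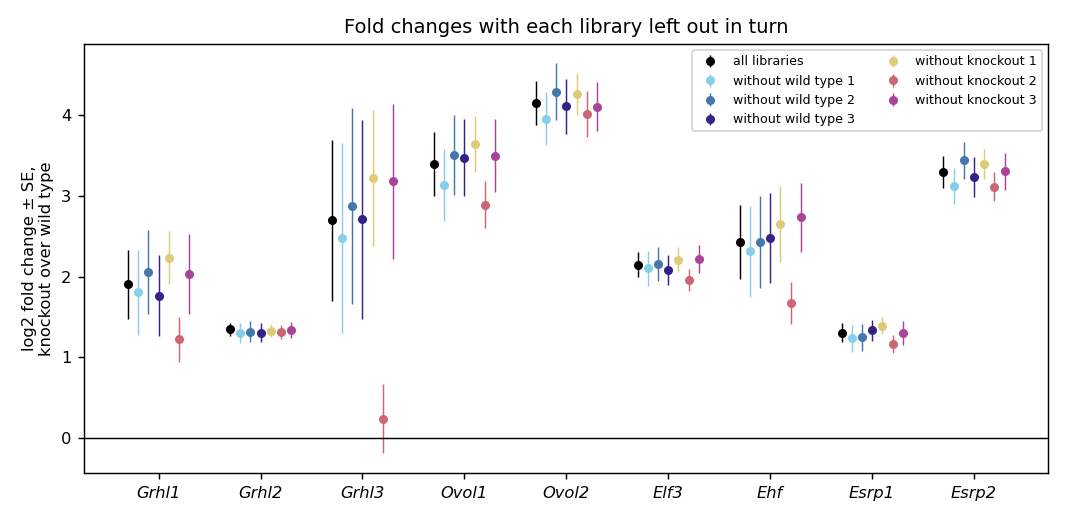
Log2 fold change ± SE of each regulator (knockout over wild type, edgeR) with all 6 libraries and with each library left out in turn. Grhl2, Elf3, Esrp1, Esrp2 and Ovol2 stay close to their values with all libraries, while Grhl3 drops from 2.70 to 0.24 without knockout replicate 2.

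Per kilobase of merged exon, Esrp1 had the highest level in both groups. In wild-type tumors it was at 6.61 CPM per kb ± 0.655 (SD, n = 3), followed by Grhl2 at 2.34 ± 0.0487, Elf3 at 1.75 ± 0.0620 and Esrp2 at 0.703 ± 0.157. None of these 4 overlapped with the next gene in the order in the unstranded counts. The place of Esrp2 depends on how pairs from shared bases are counted. In the stranded columns it was at 2.095 ± 0.205 and 1.98 ± 0.0931 CPM per kb (SD, n = 3 each), overlapping with Elf3 in both and with Grhl2 in the first. Grhl1, Ovol1, Ehf, Grhl3 and Ovol2 followed, from 0.257 down to 0.123 CPM per kb on average, each overlapping with its neighbour. In knockout tumors Esrp1 was at 16.35 CPM per kb ± 2.15 (SD, n = 3). Elf3 at 7.77 ± 1.31, Esrp2 at 6.92 ± 1.16 and Grhl2 at 5.94 ± 0.0947 came next, each overlapping with its neighbour among these 3. In the stranded columns Esrp2 was at 9.04 and 9.14 on average and did not overlap with Grhl2. Ovol1 at 2.31 ± 1.10 and Ovol2 at 2.22 ± 0.328 overlapped too. Grhl3, Grhl1 and Ehf were lowest, at 1.01, 0.967 and 0.838 on average, and overlapped with each other, as did Ovol2 and Grhl3.

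Shares between paralogs, which do not depend on how libraries are scaled, differed between the groups for the Esrp and Ovol pairs without overlap. Esrp1 made up 91.9%, 88.0% and 91.3% of the summed Esrp level per kb in wild-type libraries and 70.8%, 69.4% and 70.8% in knockout libraries. The means were 90.4% ± 2.10 and 70.3% ± 0.836 (SD, n = 3 each), and the exact two-sided permutation p was 0.1, the smallest that 3 against 3 allows. The groups did not overlap, and the gap was -20.03 percentage points here and -11.4 and -11.8 in the stranded columns. Ovol1 made up 59.5%, 63.2% and 67.3% of the Ovol1 and Ovol2 level in wild-type and 43.6%, 59.0% and 45.4% in knockout libraries (exact two-sided permutation p = 0.1). These groups were apart as well, narrowly so in knockout replicate 2. The gap of -14.0 points was -30.04 and -12.7 in the stranded columns, so which pair had the wider gap depends on the column counted.

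Grhl2 made up 87.6%, 82.2% and 85.5% of the grainyhead-like level in wild-type and 90.5%, 57.5% and 85.7% in knockout libraries (exact two-sided permutation p = 0.9). The low value belonged to knockout replicate 2, where Grhl3 held 26.2% of that level, against 2.45% to 6.67% in the other libraries. Elf3 made up 92.9%, 92.1% and 90.7% of the Elf3 and Ehf level in wild-type and 92.6%, 86.1% and 94.0% in knockout libraries (exact two-sided permutation p = 0.9). For both shares the sign of the difference turned without knockout replicate 2, from -7.24 to 2.95 points and from -1.03 to 1.36 points. Adjusted over the 4 shares by Benjamini-Hochberg, the exact permutation p was 0.2 for Esrp1 and Ovol1 and 0.9 for Grhl2 and Elf3.

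**Figure D3:**
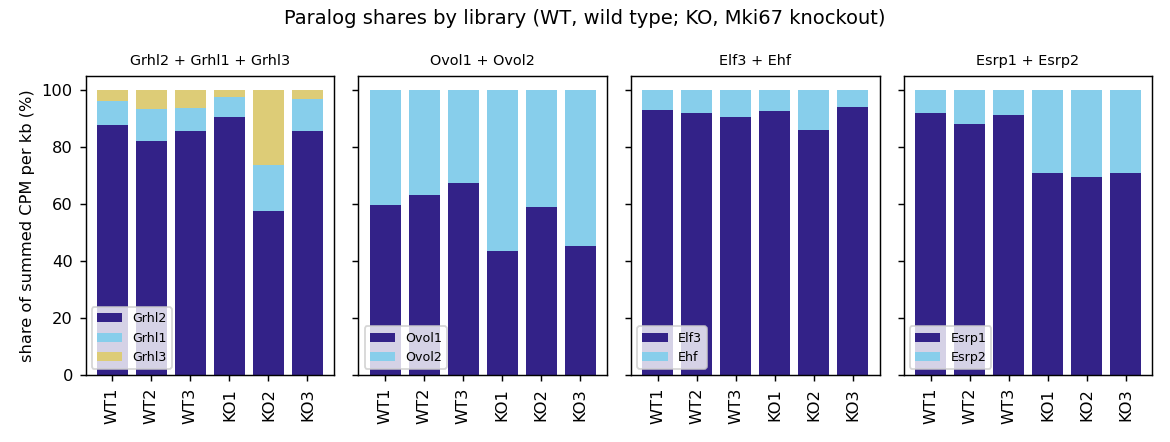
Share of each paralog in the summed level per kilobase of its family, in percent, for each wild-type (WT) and knockout (KO) library. The Esrp1 share is between 88.0% and 91.9% in wild-type and between 69.4% and 70.8% in knockout libraries, and the Grhl2 share is low in knockout replicate 2 alone, at 57.5%.

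Over the knockout libraries the regulators varied in unequal measure. Grhl2, Ovol2, Esrp2, Elf3 and Esrp1 in replicate 2 were at 0.974, 1.18, 1.29, 1.32 and 1.20 times the mean of replicates 1 and 3. Ovol1 was at 2.10 times, Grhl1 at 2.63, Ehf at 2.96 and Grhl3 at 14.04 times. Over all genes tested the median was 1.03, and 11.2% of genes were above 1.5 times. Markers of skin epidermis, a tissue that itself expresses these regulators, were high in the same library. The 13 markers, among them the keratins Krt1, Krt10 and Krt5 and the cornified envelope genes Lor, Flg and Ivl, had a median ratio of 4.05, and Krt2, under 1 CPM in every library, was alone below 1. Markers of simple epithelium were between 0.887 and 1.19 times, fibroblast markers between 1.16 and 1.88 and adipocyte markers between 1.28 and 3.27 times.

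Epidermal markers also differed between the genotypes. Their summed level was 85.5 to 151 CPM in wild-type and 757 to 1799 CPM in knockout tumors. Krt14, a keratin of basal epithelial cells, held most of it in the knockout libraries, at 815, 1009 and 629.7 CPM. Of the 13 markers 12 were called higher, 4 when wild-type replicate 1 or wild-type replicate 3 was left out, 4 with the unmapped share as a covariate and 11 without knockout replicate 2. No marker was at 0 in all libraries of a group. The part of epidermal RNA in the difference of any regulator was not tested. Without knockout replicate 2 the log2 fold changes of Grhl2, Ovol2, Elf3, Esrp1 and Esrp2 were 1.31, 4.02, 1.96, 1.17 and 3.12, close to those with it. The fit without that library is no test of epidermal RNA for these genes, as the epidermal difference remained. Summed epidermal markers were at 1010 and 757 CPM in knockout replicates 1 and 3, above every wild-type library.

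Normal mammary gland is the other epithelium such tumors can hold. Its 9 markers (milk proteins and hormone receptors) summed to 17.2 to 53.8 CPM in wild-type and 19.6 to 33.1 CPM in knockout tumors, with Csn2, a casein, at 0 in wild-type replicate 2 and knockout replicate 2. Of the 6 that were tested, 2 rose and none fell. Of the 6 markers of simple epithelium 5 rose, 1 did not pass and none fell. Their median log2 fold change was 2.47, beside 2.44 for the 9 regulators. Of the other cell types, 6 of 6 macrophage markers fell, 5 of 6 fibroblast markers rose and 1 fell, 4 of 4 adipocyte markers rose, 3 of 4 skeletal muscle markers and 2 of 4 neutrophil markers rose, and 0 of 4 endothelial markers passed in edgeR or DESeq2, 1 of them at an unadjusted p under 0.05. The part of these shifts in cell content in the regulators' differences was not tested.

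**Figure D4:**
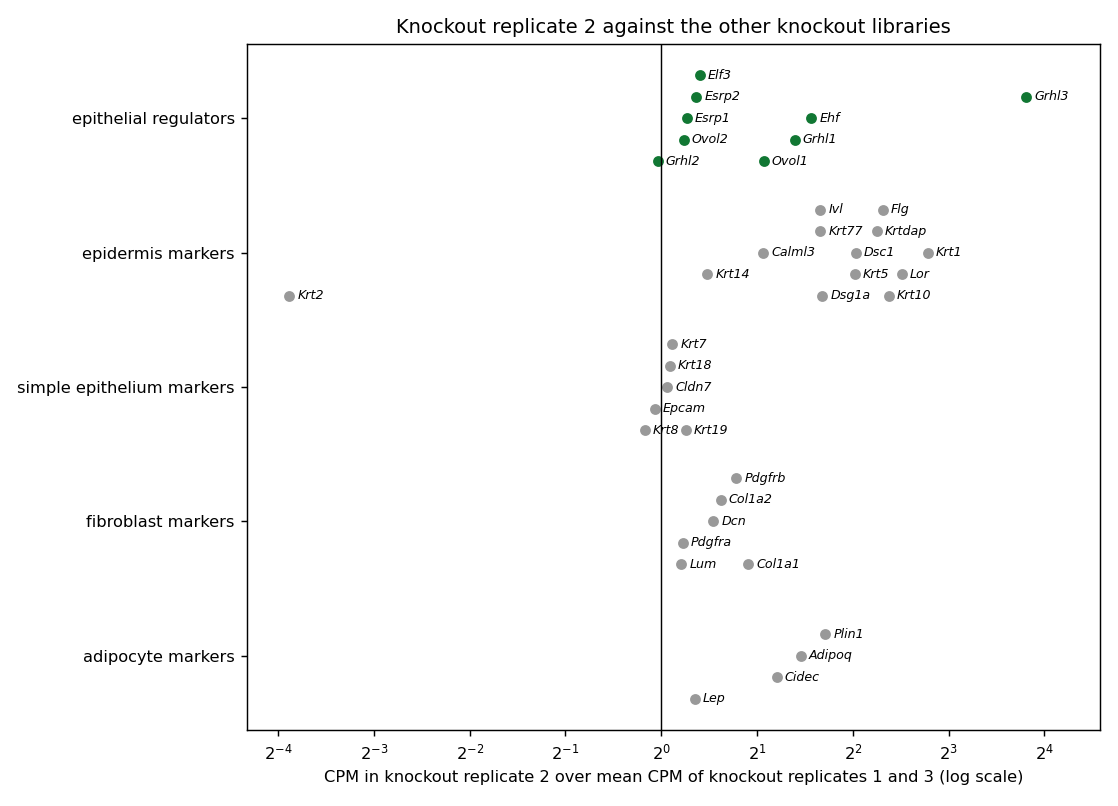
CPM in knockout replicate 2 divided by the mean CPM of knockout replicates 1 and 3 (log axis, 1 means equal) for the 9 regulators and for marker genes of other tissues. Grhl3, Ehf, Grhl1 and Ovol1 lie at 2.10 or above, Grhl3 at 14.04 beyond every epidermis marker, and the other 5 regulators at 1.32 or below.

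Compared with other epithelial transcripts of the same libraries the regulators gave opposite pictures. Relative to the summed counts of Krt8 and Krt18, abundant keratins of simple epithelium, they were higher in knockout tumors by a median of 1.85 on the log2 scale, from 1.02 for Esrp1 to 3.84 for Ovol2. The median was 1.51, 3.02 and 1.39 in knockout replicates 1, 2 and 3. Relative to Epcam, an adhesion protein of epithelial cells whose transcript rose by 2.94 on the log2 scale (adjusted p = 1.76e-06), the median was -0.82. Ovol2 exceeded the change of Epcam by 1.17, and by 1.68 and 0.61 in the stranded columns. Ovol1 and Esrp2 exceeded it by 0.39 and 0.35 in the unstranded counts only. In the stranded columns Ovol1 was at -0.29 and -0.10 and Esrp2 at -0.94 and -0.80 relative to Epcam. The other 6 were below Epcam in all 3 columns. These ratios were not tested.

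By their estimates, the tested relatives of the regulators in the same protein families moved less or the other way. Of the other grainyhead-related genes 0 passed in the main edgeR fit, 1 at an unadjusted p under 0.05. Ubp1 was at 73.5, 66.8 and 80.0 CPM in wild-type and 79.9, 118 and 91.0 CPM in knockout tumors (adjusted p = 0.0658), Tfcp2 had a log2 fold change of -0.25 (adjusted p = 0.185) and Tfcp2l1 of 0.66 (adjusted p = 0.286). Of these 3, 1 was called higher without knockout replicate 1 and with DESeq2, and 1 lower without knockout replicate 2. Ovol3 was at 0.055 and 0.026 CPM in wild-type replicates 1 and 2 and at 0 in the other libraries, and was not tested.

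Of the 24 other Ets genes 20 were tested. Of these 9 fell, 2 rose (Ets2 and Etv6) and 9 did not pass, with a median log2 fold change of -0.30. The highest log2 fold changes among the 20 were those of Spdef and Elf5, at 1.16 and 1.05. Both genes were low in counts and did not pass (edgeR adjusted p = 0.285 and 0.177). Their 95% intervals, -0.66 to 2.98 and -0.24 to 2.35, reached past the values of Grhl2 and Esrp1. Etv1, of the Pea3 branch of the family, was at 178, 190.2 and 198 CPM in wild-type and 76.5, 67.2 and 75.2 CPM in knockout tumors and fell by 1.37 on the log2 scale (SE 0.09, adjusted p = 2.03e-05). Fli1, a factor of blood and endothelial cells, fell by 1.03 (SE 0.13, adjusted p = 0.000681). Ets2, which acts downstream of growth factor signalling, rose by 0.77 (SE 0.09, adjusted p = 0.000347). The number that rose was 1 when any wild-type library or knockout replicate 3 was left out, and the number that fell was 6 without wild-type replicate 1.

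Of 12 epithelial transcription factors of other families 8 rose and none fell, with a median log2 fold change of 0.69. Trp63, the p53 relative of basal epithelial cells, was at 2.10, 2.15 and 2.14 CPM in wild-type and 18.9, 18.4 and 15.1 CPM in knockout tumors (log2 fold change 3.04, SE 0.15, adjusted p = 3.97e-06). In knockout replicate 2 it was at 1.08 times the mean of the other knockout libraries. Prdm1, a transcriptional repressor active in epidermal and immune differentiation, rose by 0.85 on the log2 scale (SE 0.14). Tfap2b, an AP-2 factor, rose by 1.74 (SE 0.28). Zfp750, an epidermal differentiation factor, came to 1.53, 7.62 and 2.19 CPM in knockout tumors, high in replicate 2 as Grhl3 was. Without knockout replicate 2, 7 of the 12 were called higher and 2 lower.

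Of 11 genes described as grainyhead targets 10 rose and none fell, with a median log2 fold change of 2.39. Rab25, a GTPase of membrane recycling, was at 0.911, 0.847 and 0.748 CPM in wild-type and 34.0, 48.4 and 31.5 CPM in knockout tumors (log2 fold change 5.50, SE 0.22, adjusted p = 1.49e-06). Cldn4, a tight junction claudin, rose by 3.65 on the log2 scale (SE 0.13, adjusted p = 7.27e-07). Arhgef19 was the gene that did not pass, at 51.7 and 61.4 CPM on average (adjusted p = 0.0564).

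Of 8 mesenchymal genes 3 fell (Zeb2, Twist1 and Vim), 3 rose (Snai2, Twist2 and Cdh2) and Zeb1 and Snai1 did not pass. Twist2 shares 46.5% of its exonic bases with the opposite-strand gene Gm29100, and its value rests on the remaining bases. Zeb2, a zinc finger repressor, was at 102, 100.3 and 102 CPM in wild-type and 34.2, 34.9 and 35.5 CPM in knockout tumors and fell by 1.54 on the log2 scale (SE 0.08, adjusted p = 5.17e-06). Twist1, a basic helix-loop-helix factor, fell by 1.66 and Vim, the intermediate filament protein vimentin, by 1.17. Zeb1, the repressor most closely tied to Ovol2, was at 10.4, 10.6 and 11.9 CPM in wild-type and 12.6, 17.2 and 13.5 CPM in knockout tumors (adjusted p = 0.0701). Its values did not overlap and were higher in the knockout libraries. Without knockout replicate 1, 5 of the 8 were called higher.

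The gene counts add up all splice forms, so they give the level of transcripts known to be spliced under Esrp proteins and not which form was made. Of 10 such genes 2 rose, 1 fell and 7 did not pass. Fgfr2, the growth factor receptor whose epithelial exon is a classic Esrp target, was at 103, 125 and 98.1 CPM in wild-type and 28.9, 30.7 and 38.9 CPM in knockout tumors and fell by 1.73 on the log2 scale (SE 0.14, adjusted p = 5.23e-05). Epb41l5, a cytoskeletal adaptor, rose by 1.10 and Ctnnd1, which encodes p120 catenin, by 0.53. Of the exonic bases of Ctnnd1, 61.2% are shared with Gm28635 on the same strand. Pairs from such bases cannot be assigned, so the Ctnnd1 value rests on its remaining bases. The number that rose was 1 without wild-type replicate 1 or 2, and the number that fell was 2 without knockout replicate 1.

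Of 21 splicing regulators of other families 3 rose (Nova1, Rbfox1 and Khdrbs3) and 6 fell, with a median log2 fold change of -0.16. Ptbp2, a relative of the polypyrimidine tract binding protein, was at 70.1, 58.7 and 60.6 CPM in wild-type and 40.5, 34.8 and 36.6 CPM in knockout tumors (log2 fold change -0.76, SE 0.10, adjusted p = 0.000913). Nova1, best known from neurons, rose by 1.56 (SE 0.22) and Khdrbs3 by 0.99 (SE 0.19). With wild-type replicate 1 or knockout replicate 3 left out 3 fell, with wild-type replicate 2 left out 2, and with knockout replicate 1 left out 12.

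**Figure D5:**
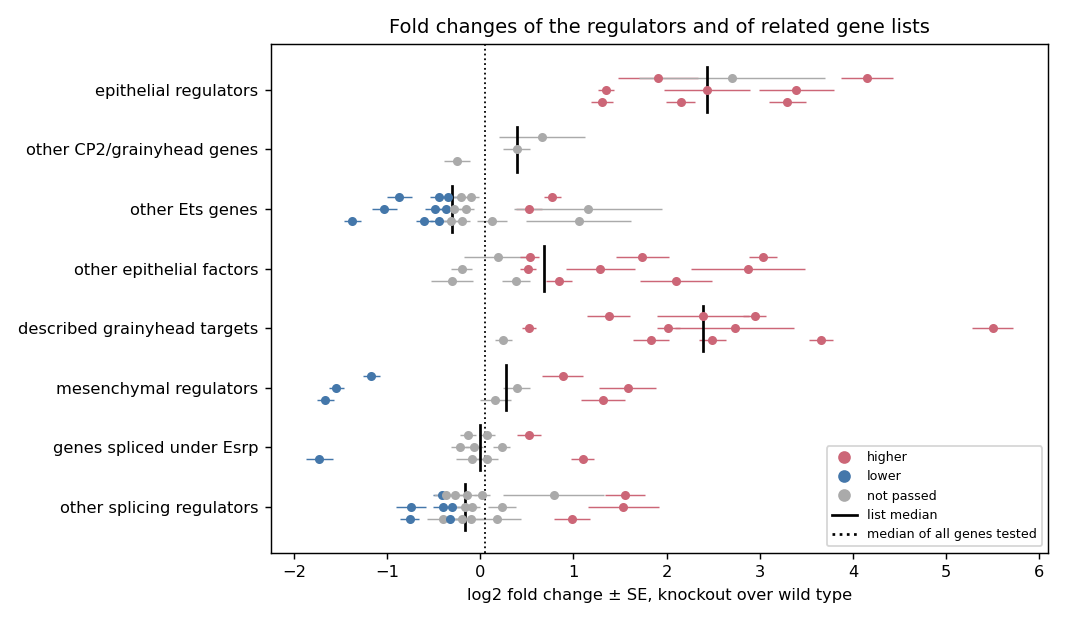
Log2 fold change ± SE (knockout over wild type, edgeR) of each tested gene of the 9 regulators and of related gene lists, coloured by call, with the median of each list (solid line) and of all genes tested (dotted line). The regulators lie between 1.31 and 4.15 and the other Ets genes between -1.37 and 1.16.

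The genes with a profile most like that of the most abundant regulator of each family were found by the root mean square difference of log2 CPM over the 6 libraries, each profile centred on its own wild-type mean, among 12152 genes with a mean of at least 2 CPM. Nearest to Grhl2 were Ripk4, Tnfaip8l1 and Cblc, at differences of 0.0645, 0.0652 and 0.0687. Ripk4 was at 15.0, 15.8 and 17.4 CPM in wild-type and 44.5, 40.1 and 40.2 CPM in knockout tumors. Nearest to Esrp1 were Dcbld1, Myo1d and Ass1, at 0.0534, 0.0730 and 0.0737, and nearest to Elf3 were Grb7, Tbc1d2 and Ptpn13, at 0.0758, 0.0908 and 0.0975. Ovol1 had more distant neighbours in Cdh23, Epn3 and C3, at 0.322, 0.336 and 0.350. With 6 libraries in 2 groups, such likeness is mostly a like difference between the groups.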

How the data were processed

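RNA was sequenced in pairs from 6 libraries of tumor RNA, 3 per genotype. The authors deposited read pair counts per gene and library, unnormalised, with 1 unstranded and 2 stranded columns; per the submitters' processing notes STAR 2.6.0c, FastQC, DESeq2 and build GRCm38 were used, and the annotation is not given in the sources used here. The unstranded counts were used because the stranded columns split the pairs evenly, with 50.1% to 50.2% in the first. The first 4 rows name no gene, held 45.2% to 66.5% of pairs and were left out. Of 54146 gene rows, 54079 matched GENCODE M21. The counts of all genes went into edgeR 4.0.16 (R 4.3.3, limma 3.58.1) with filterByExpr, TMM, quasi-likelihood test of group, Benjamini-Hochberg over 19900 genes. CPM use TMM library sizes. At this depth 3 counts are 0.0781 to 0.136 CPM. The fit was tested on simulated data, with 96 genes changed 2-fold and 98 changed 4-fold among those tested. It recovered 62.5% and 91.8% of them, and 5 of its 155 calls were false. Far fewer genes were changed there than were called in these data. Alternatives were DESeq2 1.42.0, other scalings and filters, stranded columns, covariates, a replicate block and leaving out each library. Same-numbered libraries of the groups did not deviate together (correlations 0.041, -0.229 and -0.249).

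The regulators and lists were chosen with earlier results of these data known. Named are the 9 regulators, up to 3 genes of each list with the smallest p, the 3 nearest profiles per family, Mki67 and markers. Zfp750, Zeb1, Arhgef19, Ovol3, Spdef, Elf5 and genes completing a count were named after their values were seen.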

Additional observations from a re-analysis of the deposited data

How the results depend on the processing

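Over the alternatives run, 6 to 9 of the 9 regulators were called higher and 0 lower. The 6 came from a stricter filter on low counts that left Grhl1, Grhl3 and Ehf untested, and 7 were called with the unmapped share of reads as a covariate. Grhl3 passed with no filter and with the share of reads outside exons as a covariate (3.58, adjusted p = 0.0075 in edgeR), and DESeq2 gave it no adjusted p. The 4 libraries under 40% unmapped are the 3 of wild type and knockout replicate 1 alone, so they hold no spread between knockout libraries. In them Grhl1 was at 0.80 and Grhl3 at 0.02 on the log2 scale. The replicate number as a block left 8 regulators higher and gave 3082 genes higher and 3580 lower over all genes, but same-numbered libraries did not deviate together, so the numbers are not taken as a pairing.

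Over all genes, 3506 were higher and 3652 lower. With a library left out, 1821 (without wild-type replicate 1) to 4648 were higher and 2257 (without wild-type replicate 1) to 4778 were lower. The unmapped share as a covariate gave 2333 higher, and the share outside exons 2238 lower, and the cause was not tested. With a library left out, the difference in the Grhl2 share ran from -13.53 to 2.95 points and that in the Elf3 share from -2.59 to 1.36, positive only without knockout replicate 2. The median log2 ratio of the regulators was 1.85 to Krt8 and Krt18 and -0.82 to Epcam. Single ratios to Epcam that changed sign in the stranded columns were Ovol1, from 0.39 to -0.29 and -0.10, and Esrp2, from 0.35 to -0.94 and -0.80. The number of regulators at least 4-fold higher was 5, and ran from 3 (without knockout replicate 2) to 7 (without knockout replicate 1 or 3) with a library left out. These ratios by column, this count and the levels by column were added after seeing the data. Shorter motif cores (ACNGGT for grainyhead, GGAAG for Ets) were each in windows of 3 of the 4 regulators that have a window. Over all windows 28.2% held the first and 71.4% the second. In the libraries under 40% unmapped, with knockout replicate 1 as the only knockout, Elf4 was at -0.26 and Snai1 at -0.36. Both were reversed in sign, and the cause was not tested. Depth limits Grhl3 and the wild-type levels of Ovol2 most, with 20 read pairs or fewer in each wild-type library.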
